A study of Homo sapiens with 6 samples.

Results

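The H/ACA and Cajal body small RNAs were followed in MDA-MB231 cells, a human triple-negative breast cancer line, with and without an shRNA against the receptor Ror1. They were chosen as the rows of the expression table whose gene symbol starts with SNORA or SCARNA and that reached at least 1 TPM (a transcript level scaled for length and for the library total) in at least 3 of the 6 libraries. Of 449 such rows 48 passed, 44 of 399 SNORA rows and 4 of 50 SCARNA rows, under 45 distinct symbols, and 259 of the 449 rows were at 0 in every library. The members were thus selected on these levels in both groups, and the levels and the passing counts are given as a description.

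Both groups were cells of this line that carried a lentiviral pGIPZ vector and had been selected with puromycin at 2 µg/ml, so vector and selection were shared. The control group (shCTL, n = 3) expressed a non-silencing shRNA, and the other (shRor1, n = 3) expressed 1 against Ror1. The labels name the control an empty vector and the RNA polyA, whereas the protocol starts from total RNA and the paper names a non-silencing shRNA, and the control columns also carry the word DMSO, which is not explained in the sources used here. No source states that the 3 libraries of a group came from separate cultures, so p-values measure the spread between these libraries, which may be technical. The columns carry no replicate number, and libraries are named by their order in the table.

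H/ACA RNAs fold into hairpins that pair with a target RNA and guide a protein complex built on dyskerin to turn a chosen uridine into pseudouridine. SNORA RNAs work mostly on ribosomal RNA in the nucleolus, and SCARNA RNAs work mostly on spliceosomal RNAs in Cajal bodies, small nuclear bodies organised by coilin. Most vertebrate members have no promoter of their own and are cut out of the introns of a host gene. The defining letters of H/ACA RNAs are the H box ANANNA in the hinge between the hairpins and the ACA box near the 3′ end.

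The sequences of 10 members that the results turn on are shown here, read 5′ to 3′ from the GRCh37 genome at the annotated position, with capitals marking the ANANNA match nearest to the middle of the RNA and the ACA match near the 3′ end. The first 5 include the most abundant members and a paralogue, SNORA71A.
SNORA71C, chr20:37058313-37058446, minus strand: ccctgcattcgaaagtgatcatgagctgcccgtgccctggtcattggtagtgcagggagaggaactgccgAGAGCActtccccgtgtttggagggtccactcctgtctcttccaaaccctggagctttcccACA
SNORA71A, chr20:37055952-37056085, minus strand: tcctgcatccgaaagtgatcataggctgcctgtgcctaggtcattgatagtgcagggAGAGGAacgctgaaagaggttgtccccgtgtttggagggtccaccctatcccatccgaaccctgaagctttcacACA
SNORA8, chr11:93465527-93465665, minus strand: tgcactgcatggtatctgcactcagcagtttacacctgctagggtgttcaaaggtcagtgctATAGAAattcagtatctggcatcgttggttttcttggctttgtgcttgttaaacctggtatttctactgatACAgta
SNORA73B, chr1:28835071-28835274, plus strand: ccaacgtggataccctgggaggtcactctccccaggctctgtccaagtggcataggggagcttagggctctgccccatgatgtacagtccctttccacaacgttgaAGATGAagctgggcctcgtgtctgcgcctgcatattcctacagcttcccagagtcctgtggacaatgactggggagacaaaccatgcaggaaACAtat
SCARNA22, chr4:1976363-1976487, plus strand: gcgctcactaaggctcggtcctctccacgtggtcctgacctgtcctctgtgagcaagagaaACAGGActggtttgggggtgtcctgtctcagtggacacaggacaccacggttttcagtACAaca
The next 3 are the members whose groups did not overlap.
SNORA23, chr11:9450320-9450501, plus strand: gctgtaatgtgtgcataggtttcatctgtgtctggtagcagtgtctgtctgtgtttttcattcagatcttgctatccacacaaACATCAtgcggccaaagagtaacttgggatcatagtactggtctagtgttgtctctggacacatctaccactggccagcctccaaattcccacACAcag
SNORA13, chr5:111497182-111497314, plus strand: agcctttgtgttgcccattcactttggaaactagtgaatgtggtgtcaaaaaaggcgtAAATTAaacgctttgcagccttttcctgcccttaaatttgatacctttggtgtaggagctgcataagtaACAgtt
SNORA52, chr11:811681-811814, plus strand: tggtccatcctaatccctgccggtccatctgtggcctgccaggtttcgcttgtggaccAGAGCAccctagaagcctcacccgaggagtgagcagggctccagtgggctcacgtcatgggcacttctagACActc
The last pair is nearly identical, so that a read of 50 bases can often match both.
SNORA7A, chr3:12881811-12881949, minus strand: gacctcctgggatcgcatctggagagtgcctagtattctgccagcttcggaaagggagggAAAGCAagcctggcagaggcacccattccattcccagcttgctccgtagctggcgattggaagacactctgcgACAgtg
SNORA7B, chr3:129116053-129116191, minus strand: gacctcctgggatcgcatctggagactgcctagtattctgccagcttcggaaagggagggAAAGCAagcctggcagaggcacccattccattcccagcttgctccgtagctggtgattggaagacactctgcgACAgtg

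Members were picked by symbol, and these letters are part of what defines the class that the symbol names. Their presence therefore describes the annotation and is no test of the label. An ACA followed by exactly 3 bases closed 32 of the 44 SNORA members (72.7%), against 9 of 389 SNORD rows (2.31%), the box C/D class that guides methylation instead. With ACA anywhere in the last 10 bases, as in SNORA71C and SNORA71A, the counts were 37 of 44 (84.1%) against 27 of 389 (6.94%). The middle of the RNA, from 35% to 65% of its length, held ANANNA in 41 of 44 SNORA members (93.2%) and in 51.2% of SNORD rows, which are shorter. Of the 401 SNORA and SCARNA rows that did not pass, 57.4% had ACA exactly 3 bases from the end and 77.6% had ANANNA in the middle. Of the 4 SCARNA members, 3 had ACA in the last 10 bases and 3 had ANANNA in the middle. With ACA exactly 3 bases from the end the count was 2 of 4, and 1 of 4 held this ACA together with ANANNA. The letters thus do not settle the class of the SCARNA members. Only the annotated strand was read, and a match is a description of the letters. Members were 53 to 353 bases long with a median of 135, and 35 of 48 measured between 120 and 150 bases.

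Similar members could not always be told apart by reads. SNORA7A and SNORA7B were 98.6% identical and differed at G26C and C114T, counted from 1 at the 5′ end with the base of SNORA7A first. SNORA71A and SNORA71C, which lie in the same host gene, were 84.3% identical, and SNORA5A and SNORA5C 72.3%. In all, 15 of 48 members had another SNORA or SCARNA row of at least 90% identity.

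The members were weakly covered in these libraries. Reads of the mature RNA and of an unspliced host transcript were not told apart, so TPM need not follow the mature RNA. Their mean levels ran from 0.773 to 13.0 TPM with a median of 2.06 TPM, and the highest of them stood at percentile 50.1 of all 16554 rows that passed the same filter. The low values fell on steps, each the worth of 1 read, from which the reads behind a value could be estimated. Over the 48 members together these came to 802, 709 and 547 estimated reads in the shCTL libraries and to 762, 358 and 459 in the shRor1 libraries. A member value rested on 8.0 reads at the median, 97 of 288 values rested on fewer than 5, and 9 members had at least 10 in every library. Of the 20 members without an exon overlap or a close copy, 70 of 73 values under 10 reads (95.9%) lay within 0.1 of a whole number. Of the other 28 members 51 of 92 did (55.4%), so their reads were often divided between rows.

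**Figure D1:**
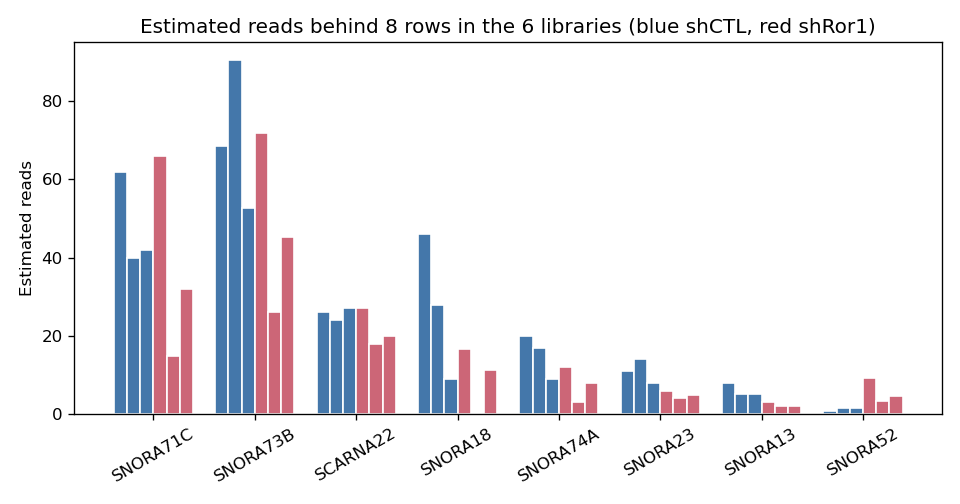
Estimated reads (vertical axis) behind 8 members in the 6 libraries, shCTL in blue and shRor1 in red, in table order from left to right. SNORA73B rested on 26.1 to 90.5 reads, whereas SNORA13 rested on 2.0 to 8.0.

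The targeted gene was lower in the shRor1 libraries without passing the test. The paper shows its knockdown in these cells by western blot, which measures protein and not RNA. ROR1 stood at 15.42, 13.49 and 20.56 TPM in shCTL, with shRor1 at 9.34, 11.93 and 14.85 TPM, so the groups overlapped. The log2 fold change was -0.43 ± 0.20 (SE) with an adjusted p of 0.984 by limma and an exact two-sided permutation p of 0.2 (the smallest possible is 0.1). Of the markers of the line, VIM, CD44, EGFR, AXL, ZEB1 and CAV1 were all present, and ESR1 (at most 0.21 TPM) and PGR (at most 0.01 TPM) were near 0. KRT19 (84.77 to 141.5 TPM), ERBB2 (26.55 to 34.9 TPM) and EPCAM (12.58 to 15.8 TPM), listed as low or absent for this line, were detected in every library. CDH1, on the same list, was low, at 1.01, 0.80 and 1.22 TPM against 1.36, 1.41 and 1.47 TPM (adjusted p = 0.984 by limma). Its groups did not overlap, which held in this direction for 6.48% of all rows. The blood cell marker PTPRC reached at most 0.39 TPM. The second shCTL library stood apart in other short RNAs, with 6099 TPM in miRNA rows against 1724 to 2193 TPM in the other libraries. It did not stand apart in the members.

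The summed level of the 48 members was 188.19, 186.11 and 159.41 TPM in shCTL and 197.42, 131.52 and 134.54 TPM in shRor1. The first shRor1 library was the highest of all 6, and the other two shRor1 libraries were the lowest, so the groups overlapped (177.9 ± 16.0 against 154.5 ± 37.2 TPM, SD, n = 3). The depth estimated from the read steps ran in a similar order, at 100, 91.9 and 76.6% of the deepest library in shCTL and at 91.4, 62.3 and 77.4% in shRor1. The paper also lists mapped reads for each replicate. Within each group these fall in the same order by replicate as the estimate does in table order. The columns carry no replicate number, so none was assigned to a replicate here. The 3 libraries deepest by this estimate had the 3 highest sums, and the part of depth in the result was not tested. In these bulk samples fewer cells that express an RNA and less of it per cell cannot be told apart.

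**Figure D2:**
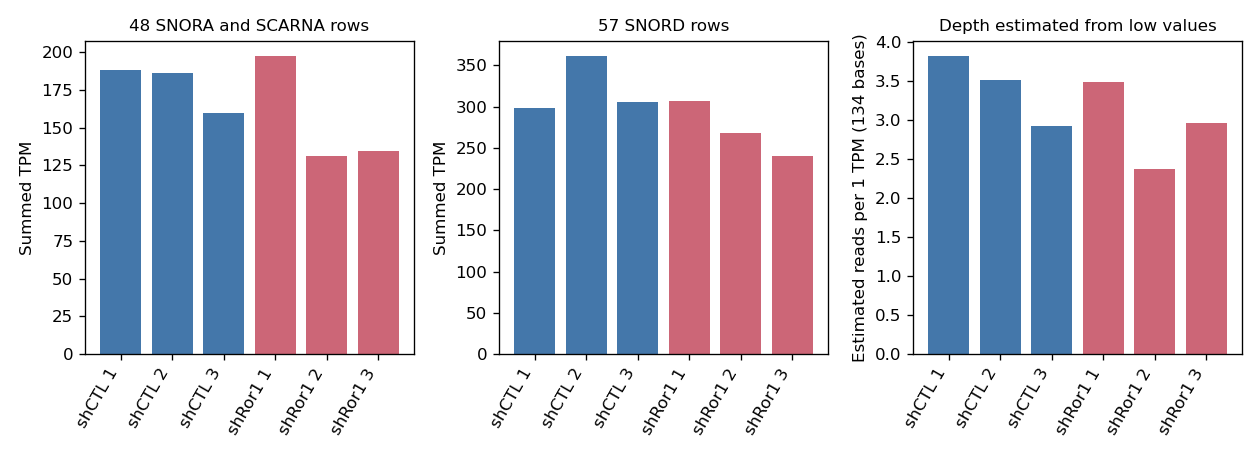
Summed TPM of the 48 SNORA and SCARNA members (left), of the 57 SNORD rows (middle), and estimated reads per 1 TPM for an RNA of 134 bases (right) in each library, shCTL in blue and shRor1 in red. The first shRor1 library has the highest member sum (197.42 TPM), and the second has the lowest member sum (131.52 TPM) and the lowest depth (2.38 reads per TPM).

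Library by library, 19 of the 48 members had their lowest value in the second shRor1 library and 11 in the third, against 3 in the first. The highest value lay in the second shRor1 library for 10 members, in the third for 2 and in the first for 8, so the second, which had the lowest estimated depth, held many of both extremes. The median deviation of the members from their own mean was 0.14 on the log2 scale in the first shRor1 library, -0.20 in the second and -0.11 in the third. The shCTL libraries had medians of 0.15, 0.12 and 0.02. The first shRor1 library thus lay among the controls, with the other two below them.

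No member passed the test at an adjusted p below 0.05 by limma, where the share called over all 16554 rows was 0.0%. The paper, which tested counts and not TPM, reports AGR2 and an uncharacterized gene as differential between these groups. The smallest adjusted p among the members was 0.984. At an unadjusted p below 0.05, 5 of 48 members were found, against 2.85% of all rows. SNORA13 and SNORA52 among them had passed the filter through 1 group alone, the one in which they were high, and without such members the count was 3 of 46, so the count is given as a description. SNORA13, SNORA23 and SNORA74A were lower in shRor1 (3 members, against 0.544% of all rows), and SNORA52 and 1 of the 2 SNORA81 members, ENSG00000238390.1, were higher (2 members, against 2.31%). These shares depended on the scaling: under median ratio scaling 4 members were lower (198 of all 16554 rows) and 1 higher (200 rows), and under quantile normalization 6 were lower (171 rows) and 1 higher (200 rows).

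A log2 fold change below 0 was found for 34 of the 48 members, against 33.0% of all rows tested. The median over the members was -0.10 and that over all rows 0.05. Under median ratio scaling 38 members and 55.4% of all rows were below 0, with medians of -0.16 and -0.02, and under quantile normalization 39 members and 49.5% of all rows were. The SNORD rows, processed from introns in the same manner but bound by other proteins, gave 38 of 57 below 0 and a median of -0.10 as well. Among the 12 members with a mean of at least 5 TPM 11 were below 0, with a median of -0.22. Without the first shRor1 library the member median was -0.25, and without the second it was -0.06.

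**Figure D3:**
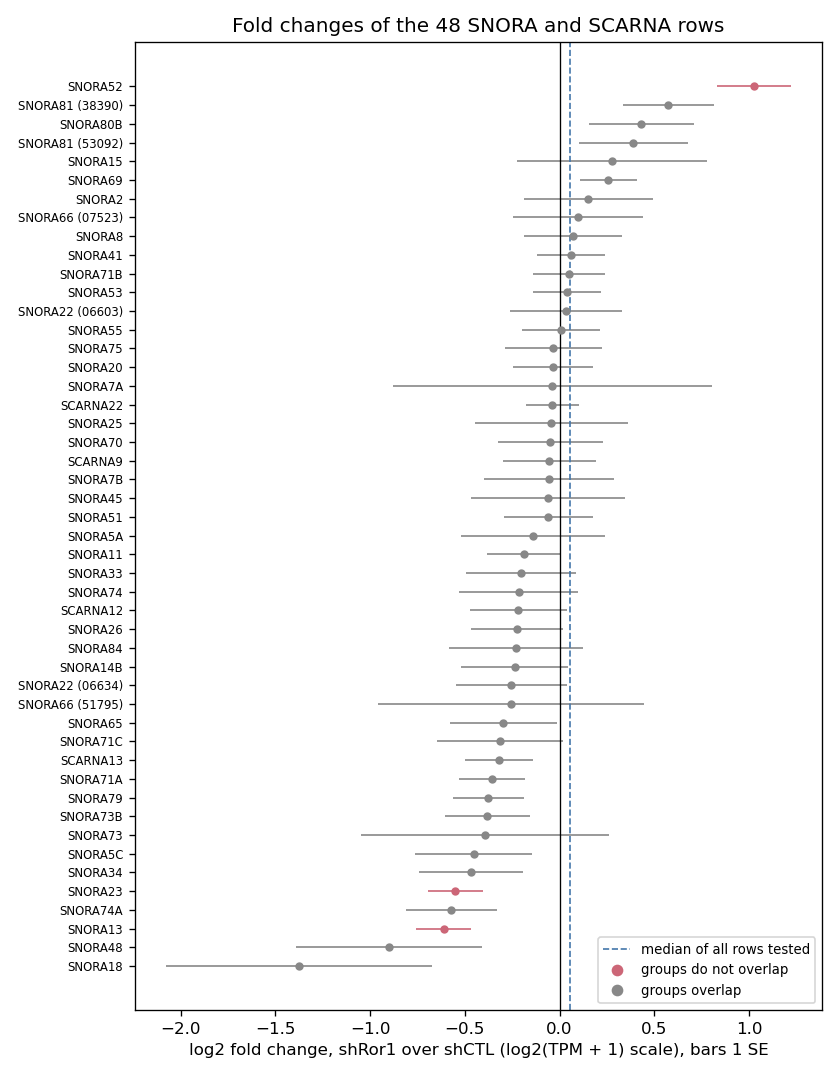
Log2 fold change of each of the 48 members (horizontal axis, shRor1 over shCTL on the log2(TPM + 1) scale, bars 1 SE), sorted by size, with members whose groups do not overlap in red and the median of all rows tested as a dashed line. Points below 0 number 34, and the red points are SNORA52, SNORA23 and SNORA13; digits in brackets are the end of the gene identifier where 2 members share a symbol.

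The most abundant members did not separate the groups. SNORA71C, made from intron 3 of the noncoding host SNHG17, stood at 16.22, 11.41 and 14.37 TPM in shCTL, with shRor1 at 18.91, 6.29 and 10.81 TPM. Both the highest and the lowest of its 6 values were shRor1 libraries (log2 fold change -0.31 ± 0.33). SNORA73B belongs to the U17 RNAs, which act in cleavage of the ribosomal RNA precursor rather than in pseudouridylation. It lies in intron 2 of RCC1, taken as its host for the higher mean level, and also within the noncoding SNHG3. SNORA73B measured 10.43, 14.99 and 10.44 TPM against 11.95, 6.38 and 8.90 TPM, with overlapping groups (-0.38 ± 0.23). SNORA8, from the TAF1D locus, was highest in the second shRor1 library, at 8.93, 11.41 and 10.51 TPM against 10.06, 16.86 and 7.32 TPM (0.07 ± 0.26). Its direction turned under median ratio scaling and quantile normalization.

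SNORA33, in intron 5 of the ribosomal protein gene RPS12, gave 15.28, 8.03 and 6.78 TPM against 10.76, 6.56 and 7.40 TPM. Its first shCTL library was high and the other 5 overlapped. SNORA11, one of the 2 members outside any annotated host, gave 8.65, 8.82 and 10.94 TPM against 9.47, 5.81 and 9.72 TPM, and SNORA26, in intron 2 of the noncoding DANCR, gave 5.37, 9.76 and 7.03 TPM against 7.52, 6.70 and 4.24 TPM. Both overlapped between the groups.

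The SNORA66 row of 53 bases, ENSG00000251795.1 in RPL5, showed how length set a level. Its 6.34, 20.75 and 2.07 TPM in shCTL and 10.42, 2.54 and 6.14 TPM in shRor1 rested on 4.0, 12.0 and 1.0 and on 6.0, 1.0 and 3.0 reads. A value of 20.75 TPM, the highest of any member in any library, was thus 12.0 reads. SNORA71C reached 18.91 TPM with 66.0 reads.

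**Figure D4:**
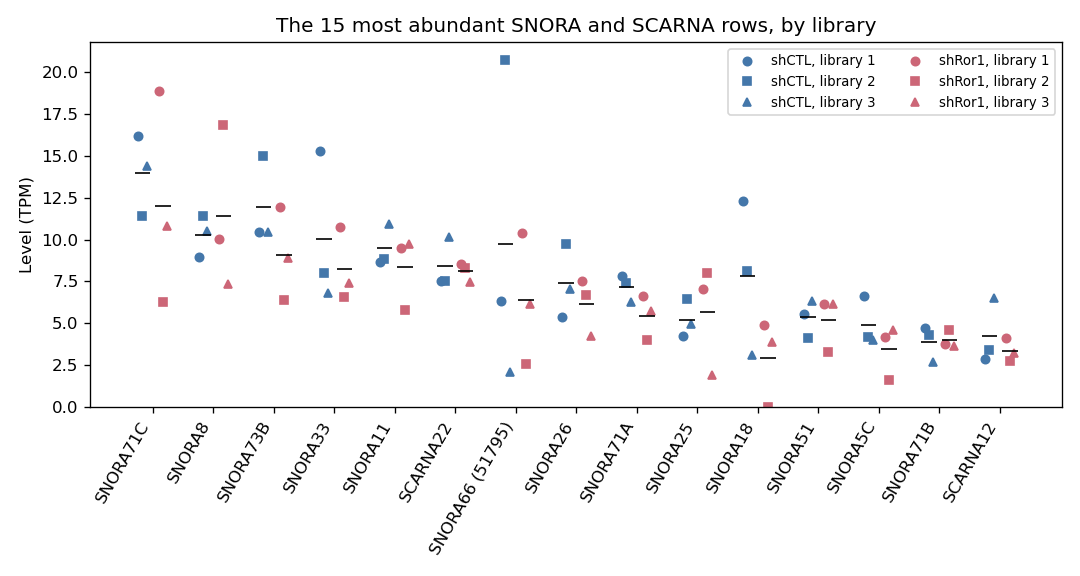
Level in TPM (vertical axis) of the 15 most abundant members, 1 point per library with shCTL in blue and shRor1 in red and a bar at each group mean. For every member shown the points of both groups overlap, and the second shCTL library of the short SNORA66 row stands at 20.75 TPM.

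In 3 of 48 members the groups did not overlap, against 7.78% of all rows. Of these 1 was higher (6.48% of all rows) and 2 were lower (1.3% of all rows). SNORA13 and SNORA52 among the 3 had passed the filter through 1 group alone, the one in which they were high. These counts are therefore given as a description. SNORA13, in intron 1 of the noncoding EPB41L4A-AS1, gave 2.11, 1.44 and 1.73 TPM against 0.87, 0.85 and 0.68 TPM, with a log2 fold change of -0.61 ± 0.14 (unadjusted p = 0.003 by limma). It passed the filter through the shCTL libraries alone, so its difference is no support, and it rested on 8.0, 5.0 and 5.0 against 3.0, 2.0 and 2.0 reads. SNORA23, in intron 13 of IPO7, gave 1.93, 2.67 and 1.83 TPM against 1.15, 1.12 and 1.13 TPM (-0.55 ± 0.14, unadjusted p = 0.006 by limma). All of its 6 libraries reached 1 TPM, and the reads were 11.0, 14.0 and 8.0 against 6.0, 4.0 and 5.0. Neither passed adjustment over all rows.

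SNORA52, in intron 3 of the ribosomal protein gene RPLP2, gave 0.23, 0.41 and 0.49 TPM in shCTL and 2.63, 1.36 and 1.55 TPM in shRor1 (1.03 ± 0.19, unadjusted p = 0.001 by limma). Every shRor1 library lay above every shCTL library, but the row passed the filter through the shRor1 libraries alone. The row overlaps an exon annotated on its strand, and its estimated reads were not whole (0.9, 1.4 and 1.4 against 9.2, 3.2 and 4.6). Its host had a mean level of 896 TPM in shCTL.

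The largest negative value belonged to SNORA18, another RNA of the TAF1D locus, at 12.31, 8.11 and 3.12 TPM in shCTL and 4.88, 0.0 and 3.87 TPM in shRor1. The second shRor1 library is listed at 0, and the groups overlapped (-1.37 ± 0.70). Without that library the log2 fold change was -0.57. A log2 change past 1 in size was found for SNORA18 and SNORA52 among the 48 members, against 0.429% of all rows. SNORA52 had passed the filter through the shRor1 libraries alone, so this count is given as a description. SNORA48, in EIF4A1, was also listed at 0 in shRor1 libraries, at 1.76, 2.31 and 1.73 TPM against 2.84, 0.0 and 0.0 TPM (-0.90 ± 0.49). Both SNORA18 and SNORA48 overlap an annotated exon and have a close copy, of 92.4% identity for SNORA18 and 91.9% for SNORA48. Whether reads behind the values of 0 were assigned to other rows was not tested.

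SNORA74A, of the U19 family, in intron 3 of MATR3 and also within SNHG4, gave 3.15, 2.92 and 1.86 TPM against 2.07, 0.76 and 1.63 TPM. The groups overlapped (-0.57 ± 0.24, unadjusted p = 0.048 by limma). The SNORA81 row ENSG00000238390.1, in SOD1, gave 1.27, 0.40 and 0.24 TPM against 1.19, 1.74 and 1.17 TPM (0.57 ± 0.24), with the first shCTL library at the level of shRor1. SNORA34, in KANSL2, gave -0.47 ± 0.27 and SNORA80B, in ODC1, 0.43 ± 0.28, both with overlapping groups. The near-identical SNORA7A, at 3.05, 0.04 and 4.30 TPM against 7.26, 1.50 and 0.0 TPM, varied within both groups by more than between them.

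All 4 SCARNA members had a negative log2 fold change over the 6 libraries, but SCARNA22, SCARNA12 and SCARNA9 turned when single libraries were left out, and none separated the groups. SCARNA22, in intron 18 of NSD2, gave 7.50, 7.54 and 10.18 TPM against 8.53, 8.32 and 7.45 TPM (-0.04 ± 0.14). SCARNA12, in PHB2, gave 2.85, 3.40 and 6.48 TPM against 4.09, 2.73 and 3.24 TPM (-0.22 ± 0.26). SCARNA9, in CEP295, gave 0.96, 2.51 and 1.01 TPM against 1.29, 1.03 and 1.66 TPM (-0.05 ± 0.25), and SCARNA13, in SNHG10, gave 0.99, 1.18 and 1.57 TPM against 0.74, 0.52 and 1.17 TPM (-0.32 ± 0.18).

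At the filter itself the third highest of the 6 values decided. Just inside were SNORA80B (1.12 TPM), SNORA22 as ENSG00000206603.1 (1.15 TPM) and SCARNA13 (1.17 TPM). Just outside were SNORA46 (0.95 TPM), SNORA40 (0.92 TPM) and SNORA51 as ENSG00000206878.1 (0.87 TPM). For an RNA of 134 bases, 1 read was worth 0.262 to 0.421 TPM, and less for longer RNAs such as SCARNA13. In all 6 libraries 24 members reached 1 TPM, and 8 did so in exactly 3.

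Nearly all members lay in a host gene on the same strand, which the selection did not use. This held for 46 of 48 members (95.8%) and for 175 of the 401 SNORA and SCARNA rows that did not pass (43.6%). For 43 members the position was an intron of the canonical host transcript. The 3 RNAs of the TAF1D locus (SNORA8, SNORA25 and SNORA18) lay outside the canonical transcript but within the gene, and 21 members overlapped an exon of some transcript. SNHG17 held 3 members (SNORA71A, SNORA71B and SNORA71C), and RPL5, TBRG4, MATR3 and CCT6A held 2 each.

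The log2 fold changes of the hosts spanned a narrower range than those of the members. Of 34 hosts tested, 25 had a log2 fold change below 0 and 9 above, between -0.21 and 0.16 with a median of -0.03, and none had an unadjusted p below 0.05 by limma. Over all rows tested 33.0% were below 0, with a median of 0.05. Under median ratio scaling 55.4% of all rows were below 0, and the hosts NSD2, RPS12, CCT6A and TAF1D turned below 0 as well. SNHG17 gave -0.14 ± 0.16, TAF1D 0.03 ± 0.11 and RCC1, a regulator of nuclear transport, -0.21 ± 0.12. SNHG3, which also holds the RCC1 member SNORA73B, gave 0.14 ± 0.16. IPO7, a nuclear import receptor and the host of SNORA23, gave 0.09 ± 0.11 where its RNA gave -0.55. RPLP2, the host of SNORA52, gave -0.01 ± 0.09 where its RNA gave 1.03. Across the 41 members with a tested host, member and host log2 fold changes had a Pearson r of 0.10 and a Spearman rho of 0.21, given as a description, since the points share libraries and hosts. The mean level of a host was 110 times that of its member at the median. The median SE was 0.28 for the 48 members and 0.13 over all rows tested. The part of this spread in the range of the members and in the correlation was not tested.

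**Figure D5:**
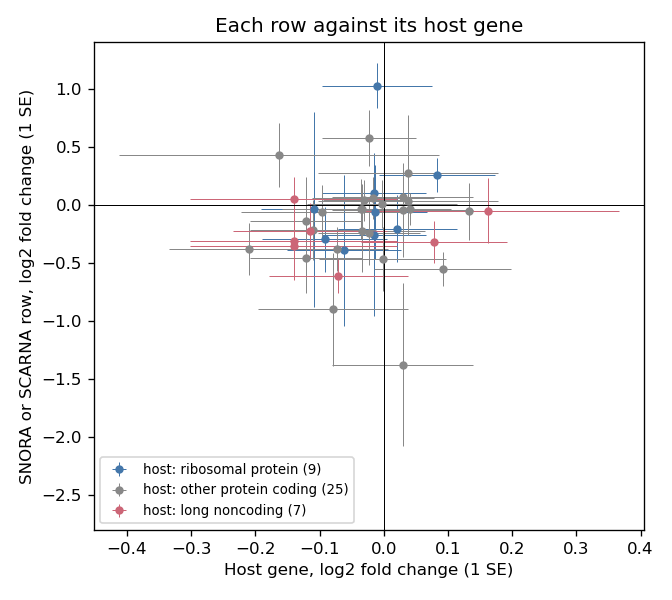
Log2 fold change of each member (vertical axis) against that of its host gene (horizontal axis) for the 41 members with a tested host, bars 1 SE, coloured by host class. Hosts lie between -0.21 and 0.16, whereas members spread from -1.37 to 1.03.

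The spread between libraries was wide for these rows. The median coefficient of variation among the shCTL libraries was 32.4% for the members, against 12.9% for the 4406 protein-coding rows in the same range of TPM. Rows matched on TPM are not matched on reads, since a shorter RNA rests on fewer reads at the same TPM. A member value rested on 8.0 estimated reads at the median, and the part of counting in this spread was not tested.

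The proteins that build and move these RNAs were taken from fixed lists, and none passed the test or reached an unadjusted p below 0.05. The 4 core proteins of the H/ACA complex all had negative values, with a median of -0.14. They were the pseudouridine synthase DKC1 (-0.13 ± 0.14), NHP2 (-0.15 ± 0.10), NOP10 (-0.13 ± 0.10) and GAR1 (-0.15 ± 0.13). In DKC1 the libraries stood at 167.36, 152.57 and 137.28 TPM in shCTL, with shRor1 at 171.62, 132.94 and 116.82 TPM, so that again the first shRor1 library was the highest of all. The 4 box C/D proteins FBL, NOP56, NOP58 and SNU13 had negative values too, with a median of -0.10.

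Of the 7 assembly and transport factors, NAF1 and PHAX were above 0 and SHQ1, RUVBL1, RUVBL2, NOLC1 and TGS1 below, with a median of -0.02. Of the 5 factors of 3′ end processing, PABPN1 and TENT4B were above 0 and PARN, TOE1 and EXOSC10 below, with a median of -0.02. TOE1, a 3′ exonuclease of small nuclear RNAs, had the most negative value of these (-0.19 ± 0.14). Of the 11 Cajal body genes, COIL, USPL1, ICE1 and NPAT were above 0 and WRAP53, SMN1, SMN2, GEMIN2, GEMIN4, GEMIN5 and SART3 below, with a median of -0.02. Under median ratio scaling NAF1, PHAX, PABPN1, TENT4B and COIL turned below 0. SMN1 and SMN2 are near-identical copies whose reads can be divided. USPL1 was the 1 of these 11 whose groups did not overlap, against 7.78% of all rows, at 7.66, 8.27 and 7.97 TPM against 8.46, 9.13 and 8.66 TPM (0.12 ± 0.10).

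A fixed list held 10 noncoding genes known as hosts of such RNAs, and not all of them hold a member of this report. Above 0 were SNHG3, SNHG10, SNHG20 and SNHG21, and below were SNHG7, SNHG8, SNHG9, SNHG12, SNHG15 and SNHG17. The median was -0.05, and SNHG10 turned below 0 under quantile normalization. SNHG20 and SNHG21 were not the host of any member. SNHG20 (0.19 ± 0.10) and SNHG21 (0.20 ± 0.10) were higher in every shRor1 library than in every shCTL library (2 of 10, against 6.48% of all rows), at an adjusted p of 0.984 by limma.

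The telomerase RNA TERC, itself an H/ACA RNA that visits Cajal bodies, was too low for the filter and was not part of the fit. It gave 0.70, 0.97 and 0.74 TPM in shCTL and 0.28, 0.41 and 0.57 TPM in shRor1. All shRor1 libraries were below all shCTL libraries, as in 1.3% of all rows tested, with an exact two-sided permutation p of 0.1, the smallest that 3 against 3 allows. The estimated reads were 13.9, 17.7 and 11.3 against 5.1, 5.1 and 8.8. The catalytic subunit TERT did not separate the groups (-0.04 ± 0.14).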

How the data were processed

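RNA of 3 shCTL and 3 shRor1 libraries was sequenced with single-end 50-base reads. Per the paper, the authors aligned these to GRCh37 with STAR using Ensembl 73 and estimated abundances with RSEM (version 1.2.5 in the submitters' processing notes). The deposited table, although called expected counts, holds TPM: each column sums to 1000000. TPM is relative to length and library total, so depth is not kept, and no count test was run. A short RNA gains a high TPM from few reads. No column of per-sample values was set aside (0).

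The filter (1 TPM or more in 3 libraries or more) left 16554 of 57445 rows. A linear model with condition as the only term was fitted to log2(TPM + 1) with limma 3.58.1 in R 4.3.3, using the mean-variance trend. Adjustment was by Benjamini-Hochberg over all 16554 rows, with a threshold of 0.05. The log2(TPM + 1) scale of the fold changes understates changes of low rows. The fit was checked on simulated data. Single genes were also compared with an exact two-sided permutation test. Symbols, hosts and positions were read from GENCODE 44 lifted to GRCh37, which is newer than the annotation but on the build that the authors used, and 55022 identifiers matched. Where more than 1 gene held a member, the measured gene with the highest mean TPM was taken as its host. Estimated reads are TPM × (length − 37 bases) divided by a constant per library found from the steps of low values. They were not tested, and cover counting only.

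The members and lists were chosen with earlier results of these data known. Named are the 8 members with the highest mean, the 8 with the largest change, the 5 with the smallest p, all SCARNA members, the 3 nearest the filter on each side, their hosts, ROR1, TERC and all genes of the protein lists. SNORA7A, SNORA7B, SNORA71A, SNORA25, SNORA71B, SNORA5A and SNORA5C are named outside this rule for their sequence or host. Alternatives were other filters, pseudocount, scalings, trend, rows summed by symbol and each library left out. Alternatives chosen after seeing the data kept members with at least 5 estimated reads in every library, or left out members that passed the filter through 1 group alone. One member sequence is not reported here.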

Additional observations from a re-analysis of the deposited data

How the results depend on the processing

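No paired analysis was possible because no column of the table is numbered, so the planned replicate block was not run. Depth limits these results, since 97 of 288 member values rested on fewer than 5 estimated reads. No member was called under any of the 13 alternatives, with a smallest adjusted p of 0.432 by limma. The count over all rows was 0 to 1 when libraries were left out, the 1 being RPL39P3 without the third shRor1 library. Members at an unadjusted p below 0.05 numbered 9 with no filter, 3 without the members that passed the filter through 1 group alone (chosen after seeing the data), 0 with a mean of at least 5 TPM, and 4 to 12 when libraries were left out. The member median ran from -0.25 to -0.058 over libraries left out, was -0.04 to -0.22 under the other alternatives, and was -0.19 in members with at least 5 estimated reads throughout. ROR1 stayed between -0.58 and -0.26. Median ratio scaling moved the median of all rows from 0.05 to -0.02, and rows at an unadjusted p below 0.05 from 382 higher and 90 lower to 200 and 198, with 200 and 171 under quantile normalization. The cause of these moves was not tested.

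Of 21 named members 12 kept their direction throughout, and of 58 named partners and hosts 22 did. Under median ratio scaling these turned to a negative log2 fold change: SNORA8 -0.0011, COIL -0.041, PABPN1 -0.074, TENT4B -0.069, NAF1 -0.015, PHAX -0.059, NSD2 -0.039, RPS12 -0.059, CCT6A -0.042 and TAF1D -0.051. Under quantile normalization SNORA8 gave -0.0072, COIL -0.019, PABPN1 -0.0039, TENT4B -0.067, SNHG10 -0.017, RPL5 0.028, EIF4A1 0.0036 and RPLP2 0.016. With rows summed by symbol SNORA22 gave -0.035. 
Leaving out 1 library at a time turned the direction of the following members, over these ranges: SNORA8 -0.23 to 0.32, SNORA33 -0.42 to 0.11, SNORA66 (ENSG00000251795.1) -0.93 to 0.48, SCARNA9 -0.20 to 0.22, SNORA22 (ENSG00000206603.1) -0.21 to 0.30, SCARNA22 -0.10 to 0.093, SCARNA12 -0.41 to 0.069, SNORA71C -0.68 to 0.045 and SNORA11 -0.30 to 0.024. Among partners and hosts it turned NOP58 -0.082 to 0.064, TENT4B -0.064 to 0.052, TGS1 -0.064 to 0.033, SNHG8 -0.14 to 0.046, TERT -0.15 to 0.021, RPL5 -0.054 to 0.029, KANSL2 -0.057 to 0.081, SOD1 -0.065 to 0.033, RPLP2 -0.057 to 0.065, SMN2 -0.087 to 0.081, PABPN1 -0.040 to 0.051, PHAX -0.041 to 0.065, SNHG12 -0.14 to 0.081, COIL -0.048 to 0.10, WRAP53 -0.071 to 0.036, EXOSC10 -0.052 to 0.014, SHQ1 -0.10 to 0.032, RPS12 -0.030 to 0.083, CCT6A -0.083 to 0.17, TAF1D -0.070 to 0.12, NAF1 -0.0015 to 0.13, SNHG9 -0.36 to 0.013, IPO7 -0.019 to 0.15, NOP56 -0.20 to 0.034, GEMIN2 -0.12 to 0.0027, GEMIN5 -0.16 to 0.038, NOLC1 -0.18 to 0.091, RUVBL1 -0.12 to 0.014, SNHG15 -0.26 to 0.036, SNHG7 -0.20 to 0.059, ODC1 -0.39 to 0.077, EIF4A1 -0.19 to 0.016, CEP295 -0.0021 to 0.25 and DANCR -0.20 to 0.0068.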
